A study of Mus musculus with 12 samples.

Results

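The MHC class II presentation genes were described across purified blood-forming cells of mice with and without the transcription factor NFAT5. They were chosen by symbol, as Cd74, H2-Aa, H2-Ab1, H2-Eb1, H2-DMa, H2-DMb1, H2-Oa, H2-Ob and Ciita, with earlier results of these data known. Of these 9 genes, 8 had a probe set in the table of expression values, among 19494 genes measured, and Cd74 was not analysed here. Each of the 8 had a single probe set, and all 8 passed the filter on weak signals. The clearest difference lay between the cell populations and not between the genotypes: H2-Ob was lower in stem cells than in progenitors, at 20.9% of the progenitor signal. Its stem cell values lay around the array medians, where detection was not assessed.

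MHC class II molecules present peptides from endosomes to CD4+ T cells and are best known from B cells, dendritic cells and macrophages. H2-Aa and H2-Ab1 encode the chains of I-A, and H2-Eb1 encodes the beta chain of I-E. Newly made molecules are held by the invariant chain, the product of Cd74, and the heterodimer H2-DM exchanges its remnant for peptide. H2-O, made of the H2-Oa and H2-Ob chains, binds H2-DM and inhibits it, and is known chiefly from B cells and thymic epithelium. CIITA, the product of Ciita, binds no DNA itself and is recruited to class II promoters by RFX, CREB and NF-Y, which sit on neighbouring X and Y boxes.

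RNA came from bone marrow of untreated mice, and each animal gave 1 array of haematopoietic stem cells (HSC) and 1 of multipotent progenitors (MPP). The knockout animals (KO) were Nfat5 fl/fl Vav-Cre, and the control animals (WT) were Nfat5 +/+ Vav-Cre, so both genotypes carried a Cre that is active throughout the haematopoietic system. HSC were CD48-CD150+ and MPP were CD48+CD150- cells of the LSK compartment (lineage-negative, Sca-1 and Kit positive). The 12 arrays thus formed 4 groups of 3: KO HSC, WT HSC, KO MPP and WT MPP. The KO mice bore the numbers 2, 11 and 70 and the WT mice 3, 12 and 64, and array values below follow that order. Age, sex and strain were not stated in the labels. All values are log2 signals normalised by RMA, in which 1 unit is a doubling. They were compared within a gene only, because probe sets differ in their response. With 3 arrays in a group, precision is limited.

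The labels were checked first. Nfat5 averaged 7.69 ± 0.31 in KO and 8.60 ± 0.36 in WT HSC, and in MPP 7.16 ± 0.25 in KO against 8.03 ± 0.24 in WT (SD, n = 3), with p = 0.1 in a two-sided exact permutation test each time, the smallest that 3 against 3 mice can give. The position of its probe set relative to the deleted exons was not given in the sources used here. Slamf1 and Cd48 encode the CD150 and CD48 used for the sort. Over both genotypes, the mean difference of all 7 HSC markers measured was above 0, as was that of 8357 of 14620 genes. Of these 7, 4 passed as higher in HSC at a limma adjusted p under 0.05, beside 282 of all genes. For 3 of the 7 the HSC and MPP values did not overlap. All 5 MPP markers passed as lower in HSC, beside 427 of all genes, and none of them overlapped. One array deviated more from its group than the others, that of HSC from KO mouse 2 (SD of deviations 0.438, against 0.276 to 0.378).

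Upstream sequence was read for the members that RefSeq's GRCm38.p6 promoter table lists, each window running from 250 bases before to 50 after a gene's start. Windows existed for 6 of the 9 named genes: H2-Aa, H2-DMa, H2-DMb1, H2-Eb1, H2-Oa and H2-Ob. H2-Ob is shown at the full 250 bases, because it is the member that differed between populations, and stretches of 90 bases of the others are shown for comparison with it. Capitals mark the Y box letters TGATTGG and the X box letters GNAAC and TGATG with 3 bases between them, in which N is any base. Both patterns were chosen after the windows had been read, were searched on both strands and do not overlap in any member.
H2-Ob (chr17:34238655-34238904, + strand): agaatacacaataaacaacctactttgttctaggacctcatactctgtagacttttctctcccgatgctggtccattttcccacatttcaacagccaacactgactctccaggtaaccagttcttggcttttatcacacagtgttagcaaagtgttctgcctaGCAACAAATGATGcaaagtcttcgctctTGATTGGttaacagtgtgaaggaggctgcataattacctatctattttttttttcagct
H2-Oa (chr17:34092271-34092360, + strand): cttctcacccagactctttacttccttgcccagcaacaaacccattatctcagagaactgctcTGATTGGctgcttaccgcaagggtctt
H2-DMb1 (chr17:34153065-34153154, + strand): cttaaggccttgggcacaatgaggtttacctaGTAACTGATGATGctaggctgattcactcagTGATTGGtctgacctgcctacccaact
H2-Aa (chr17:34287847-34287936, - strand): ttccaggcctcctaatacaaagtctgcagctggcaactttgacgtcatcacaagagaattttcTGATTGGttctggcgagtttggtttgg
H2-Eb1 (chr17:34305743-34305832, + strand): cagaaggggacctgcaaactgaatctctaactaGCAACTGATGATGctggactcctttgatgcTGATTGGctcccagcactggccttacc

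The Y letters were found in 5 of these 6 genes and the X letters in 3. H2-Ob, H2-DMb1 and H2-Eb1 held both, with 15, 18 and 17 bases between them. In H2-Ob the X letters began 87 and the Y letters 59 bases before the gene's start. H2-Aa and H2-Oa held the Y letters alone, starting 50 and 45 bases before the start, and neither pattern was found in the 2 windows of H2-DMa. Among all 32851 windows of that table, 7.82% held the Y letters, 0.183% the X letters and 0.0274% both. Because the patterns were chosen after the members' windows had been read, these shares do not test an enrichment in the members. The printed stretches of H2-Aa and H2-Oa do hold gcaac before the Y letters, but not the TGATG that the X pattern asks for. A match describes these letters only. Its absence says nothing about an X box of other letters or about binding of a factor.

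The comparison of HSC with MPP asked how the class II genes stand at these neighbouring steps of blood formation. H2-Ob, the beta chain of H2-O, read 5.97, 5.39 and 5.83 in KO HSC and 8.41, 7.65 and 7.88 in KO MPP. It read 6.13, 5.48 and 5.23 in WT HSC and 7.77, 7.66 and 8.22 in WT MPP. Every HSC array lay below every MPP array, in both genotypes. The HSC minus MPP difference was -2.25 in KO mice (SE 0.28, 95% CI -2.87 to -1.62, limma adjusted p = 0.00374) and -2.27 in WT mice (SE 0.28, 95% CI -2.89 to -1.65, limma adjusted p = 0.00247). Over both genotypes, a comparison added after the data were seen, it was -2.26 (SE 0.20, limma adjusted p = 0.00012). HSC signal was thus lower by a factor of 4.78 (95% CI 3.53 to 6.49). The H2-Ob values in HSC, 5.23 to 6.13, lay around the array medians of 5.81 to 5.91. Detection calls were not used, so low expression and a signal near background cannot be told apart for H2-Ob in HSC. The factor therefore describes array signal and not a measured ratio of RNA. These tests took the arrays as independent, although the HSC and MPP arrays of a mouse share an animal. With the mouse as a block, the H2-Ob limma adjusted p was 0.0281 in KO mice, 0.0213 in WT mice and 0.00291 over both genotypes.

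H2-Ob was lower in the HSC than in the MPP of all 6 animals, by a within-mouse difference of -2.44, -2.26 and -2.04 in the KO mice and -1.65, -2.17 and -2.99 in the WT mice. It ranked 34 from the most negative of 14620 genes over both genotypes, 43 in KO and 50 in WT mice. No dependence of its population difference on the genotype was detected: the interaction was 0.02 (SE 0.40, 95% CI -0.86 to 0.90, limma adjusted p = 0.9996). Leaving out single mice gave interactions of -0.34 to 0.33. With 3 mice in a group, the 95% interval was wide and included genotype differences in either direction. In WT mice the call was lost without mouse 64, where the difference was -1.91 and the limma adjusted p = 0.0509. Without the HSC array of KO mouse 2 the KO difference was -2.37 (limma adjusted p = 0.0108). In sorted cells measured in bulk, fewer cells that express a gene and less RNA per cell cannot be told apart.

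**Figure D1:**
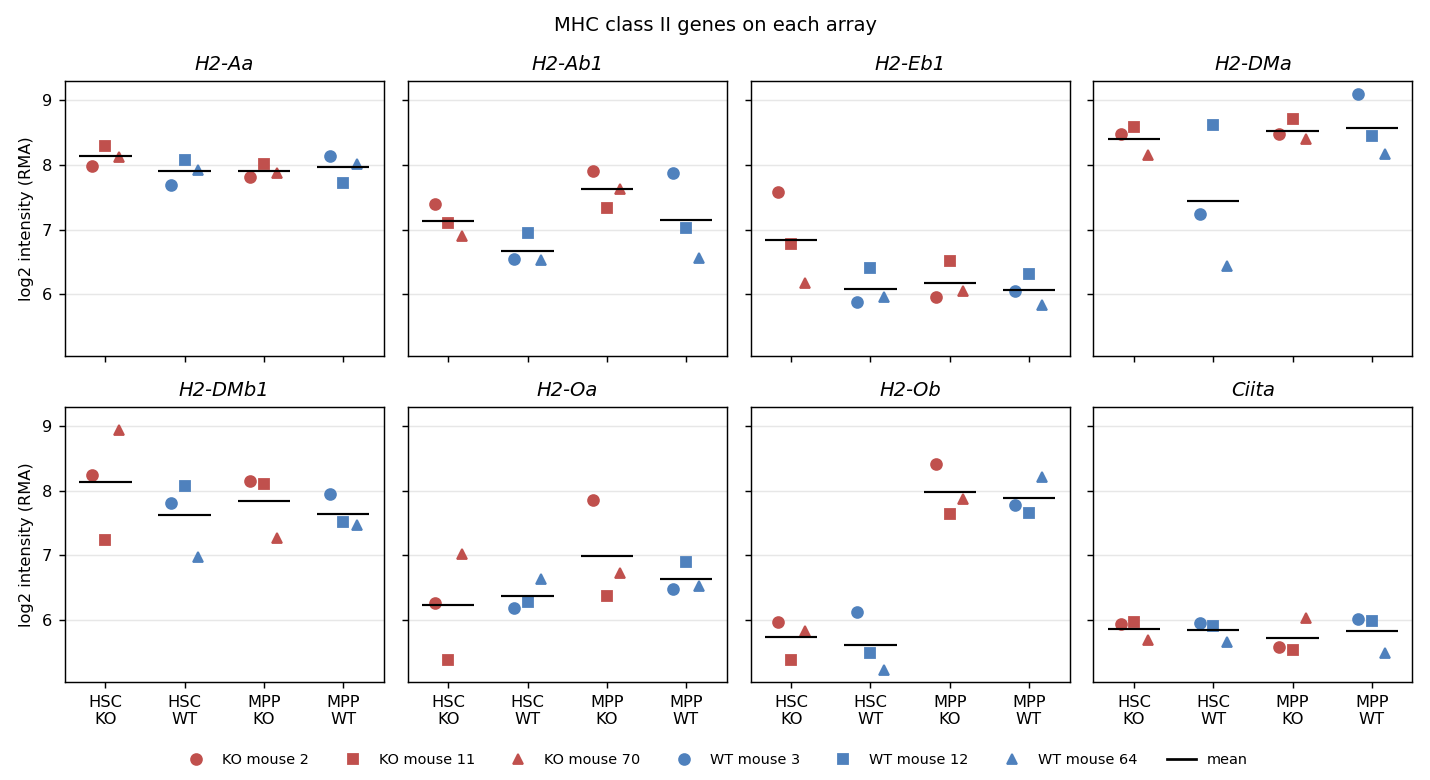
Log2 signal of the 8 class II genes on each array, 1 panel per gene, with KO left of WT within HSC and within MPP. Points are single arrays and horizontal lines are group means (n = 3). H2-Ob lies between 5.23 and 6.13 on the HSC arrays, all below the MPP arrays at 7.65 to 8.41, whereas for the other 7 genes the HSC and MPP values overlap.

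H2-Ob was the single member of 8 that passed the test, in each of these comparisons. Of all genes tested, 1.26% passed in KO mice, 2.07% in WT mice and 4.85% over both genotypes, and 0.739%, 1.32% and 2.92% passed as lower in HSC. It was also the single member whose HSC and MPP groups did not overlap, against 17.1% of all genes in KO mice, 21.3% in WT mice and 4.21% over both. With the mouse as a block, 113 genes in place of 184 passed in KO mice and 180 in place of 302 in WT mice, and H2-Ob was among them. The median HSC minus MPP difference over the 8 members was 0.01 in KO mice, -0.17 in WT mice and -0.20 over both genotypes, beside 0.05, 0.03 and 0.05 over all genes. The WT median was -0.0086 without mouse 3 and -0.29 without mouse 12, and that over both genotypes ran from -0.32 without mouse 70 to -0.085 without mouse 3.

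H2-Oa, the alpha chain that pairs with H2-Ob, read 6.27, 5.38 and 7.02 in KO HSC and 7.85, 6.37 and 6.73 in KO MPP. It read 6.19, 6.28 and 6.63 in WT HSC and 6.49, 6.90 and 6.53 in WT MPP. HSC and MPP values overlapped in both genotypes, and 4 of 6 mice had the lower value in HSC. The difference over both genotypes was -0.51 (SE 0.30, 95% CI -1.18 to 0.15, limma adjusted p = 0.378). It was -0.31 without KO mouse 2 and -0.78 without KO mouse 70. The difference between the H2-Oa and H2-Ob responses was not itself tested.

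H2-DMa encodes the alpha chain of H2-DM, the peptide exchange factor that H2-O inhibits. It read 8.47, 8.58 and 8.15 in KO HSC and 8.48, 8.71 and 8.40 in KO MPP, and its population difference there was -0.13 (SE 0.45, limma adjusted p = 0.936). In WT it read 7.24, 8.62 and 6.44 in HSC and 9.11, 8.46 and 8.17 in MPP, a difference of -1.14 (SE 0.45, limma adjusted p = 0.280), or -1.79 without mouse 12. The WT HSC arrays spanned 2.18 units, wider than any other group of any member. WT mice 3 and 64 had the low values, while WT mouse 12 read like the MPP arrays.

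H2-DMb1 encodes a beta chain of H2-DM. It read 8.24, 7.24 and 8.94 in KO HSC and 8.15, 8.10 and 7.27 in KO MPP. In WT it read 7.80, 8.07 and 6.98 in HSC and 7.94, 7.51 and 7.47 in MPP. The difference over both genotypes was 0.14 (SE 0.30, limma adjusted p = 0.833), and 3 mice lay on either side of 0. H2-DMb2, a close copy that encodes the other H2-DM beta chain, is not a member, and the signals of the copies may not be told apart. H2-DMb2 read 6.40, 7.10 and 6.76 in KO HSC and 7.10, 7.69 and 6.92 in KO MPP, and 7.71, 6.73 and 5.90 in WT HSC and 8.08, 7.57 and 8.51 in WT MPP. Its HSC value was the lower one in 6 of 6 mice, yet the difference over both genotypes of -0.88 (SE 0.30) did not pass (limma adjusted p = 0.133).

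The chains that hold the peptide did not pass either. H2-Ab1, the beta chain of I-A, read 7.39, 7.10 and 6.91 in KO HSC and 7.91, 7.34 and 7.63 in KO MPP. In WT it read 6.54, 6.94 and 6.53 in HSC and 7.88, 7.02 and 6.55 in MPP. The HSC value was lower in 6 of 6 mice, by differences of -1.34 to -0.02, and over both genotypes the difference of -0.49 (SE 0.21) did not pass (limma adjusted p = 0.243). It was -0.27 without WT mouse 3. H2-Aa, the alpha chain of I-A, stayed within 0.60 units on all 12 arrays. It read 7.99, 8.30 and 8.12 in KO HSC and 7.81, 8.02 and 7.88 in KO MPP, and 7.70, 8.08 and 7.92 in WT HSC and 8.14, 7.73 and 8.02 in WT MPP. Its difference over both genotypes was 0.08 (SE 0.11, 95% CI -0.17 to 0.34, limma adjusted p = 0.717).

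H2-Eb1, the beta chain of I-E, read 7.58, 6.78 and 6.18 in KO HSC and 5.95, 6.51 and 6.06 in KO MPP. In WT it read 5.89, 6.41 and 5.96 in HSC and 6.05, 6.32 and 5.84 in MPP. The highest value of all 12 was that of the HSC array that stood apart. The HSC minus MPP difference in KO mice was 0.67 (SE 0.32, limma adjusted p = 0.428), and in WT mice it was 0.02 (SE 0.32). Without that HSC array of KO mouse 2 the KO difference was 0.30 (limma adjusted p = 0.800), and leaving out single mice gave 0.20 to 0.95, lowest without mouse 2. Ciita, the master coactivator of the family, varied little, with 5.93, 5.97 and 5.70 in KO HSC and 5.58, 5.54 and 6.03 in KO MPP. In WT it read 5.95, 5.92 and 5.65 in HSC and 6.01, 5.98 and 5.49 in MPP. Its difference over both genotypes was 0.08 (SE 0.14, 95% CI -0.22 to 0.39, limma adjusted p = 0.775). The Ciita values, 5.49 to 6.03, lay around the array medians of 5.81 to 5.91. Detection calls were not used, so a steady level and a signal near background cannot be told apart for Ciita.

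**Figure D2:**
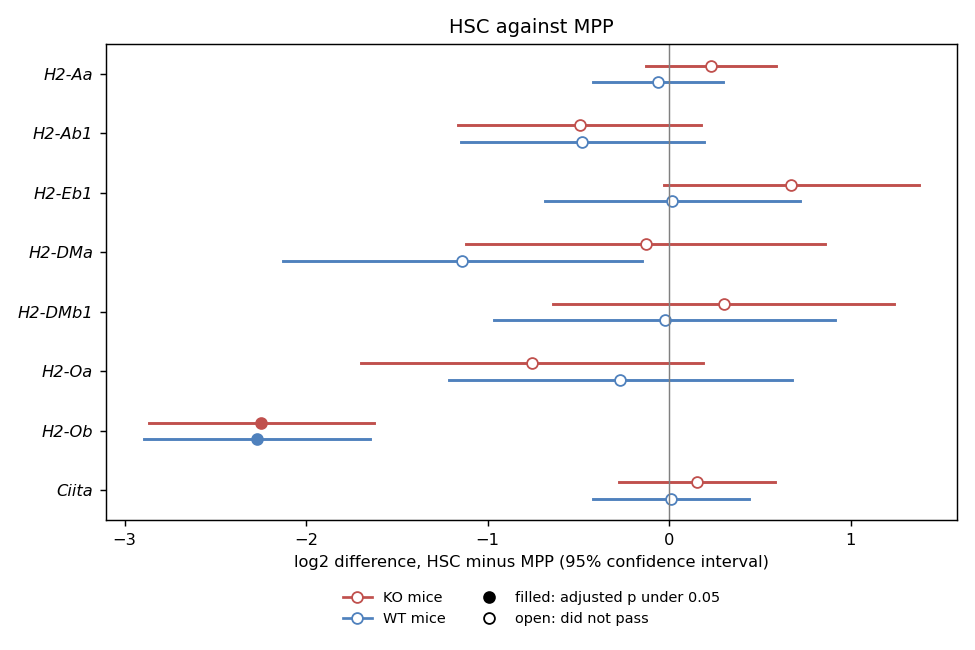
HSC minus MPP log2 difference of each class II gene in KO and in WT mice, with 95% confidence intervals from limma. Filled points passed at an adjusted p under 0.05. H2-Ob alone is filled, at -2.25 in KO and -2.27 in WT mice.

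**Figure D3:**
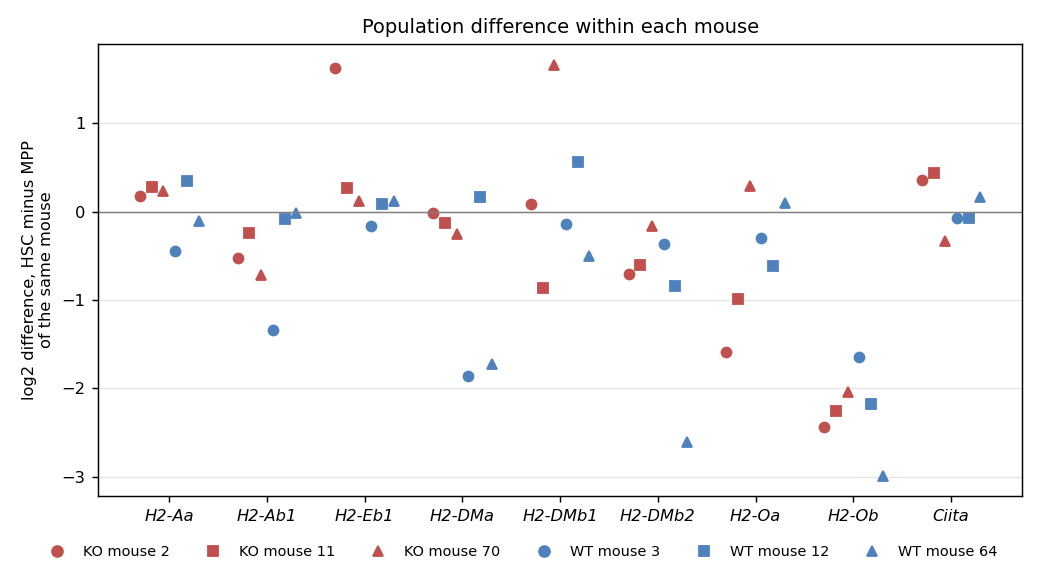
HSC minus MPP log2 difference within each of the 6 mice, 1 point per mouse, for each class II gene and for H2-DMb2. H2-Ob lies between -2.99 and -1.65 in all mice. H2-Ab1 and H2-DMb2 are also below 0 in all mice, but close to 0 in some of them.

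As group means, H2-Ob stood at 5.73 ± 0.30 in KO HSC, 5.61 ± 0.46 in WT HSC, 7.98 ± 0.39 in KO MPP and 7.88 ± 0.30 in WT MPP (SD, n = 3). Both MPP groups thus ranked above both HSC groups, and neighbours of the same population did not differ beyond their spread. H2-Ab1 averaged 7.13 ± 0.24 in KO HSC, 6.67 ± 0.23 in WT HSC, 7.63 ± 0.29 in KO MPP and 7.15 ± 0.67 in WT MPP, with KO MPP highest and WT HSC lowest, and neighbours in that order had overlapping values. H2-DMa averaged 8.40 ± 0.23 in KO HSC, 7.44 ± 1.10 in WT HSC, 8.53 ± 0.16 in KO MPP and 8.58 ± 0.48 in WT MPP, so that WT HSC ranked last with the widest spread. H2-Eb1 was highest in KO HSC at 6.85 ± 0.70, and the other 3 groups averaged 6.07 to 6.17. Group means of H2-Aa (7.90 to 8.14) and Ciita (5.71 to 5.87) were nearly level, those of Ciita near the array medians, where detection was not assessed.

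The comparison of KO with WT asked what loss of NFAT5 changes in unstressed cells. In HSC 0 of the 8 members passed by limma, as did 0.0% of all 14620 genes. A single member, H2-Eb1, had an unadjusted p under 0.05, which 6.29% of all genes had. H2-DMa had the largest positive difference, at 0.96 (SE 0.45, 95% CI -0.02 to 1.95, limma adjusted p = 0.796), with 8.47, 8.58 and 8.15 in KO HSC and 7.24, 8.62 and 6.44 in WT HSC. Of the WT arrays 2 lay below all KO arrays, and that of mouse 12 lay above them. The difference was 0.47 without WT mouse 64 and 1.56 without WT mouse 12. These WT HSC arrays also enter the H2-DMa difference between HSC and MPP in WT mice, so the 2 results are not separate.

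H2-Eb1 differed by 0.76 between KO and WT HSC (SE 0.32, 95% CI 0.06 to 1.46, limma adjusted p = 0.790). Without the KO array of mouse 2 the difference was 0.39 (limma adjusted p = 0.880). The I-A chains differed by 0.46 for H2-Ab1 (SE 0.30, limma adjusted p = 0.896) and 0.24 for H2-Aa (SE 0.16, limma adjusted p = 0.909), and H2-DMb1 by 0.52 (SE 0.43, limma adjusted p = 0.941). That of H2-DMb1 was 0.12 without KO mouse 70 and 0.97 without KO mouse 11. H2-Ob at 0.12, Ciita at 0.03 and H2-Oa at -0.14 stood near 0. KO and WT HSC values overlapped for all 8 members, while 8.87% of all genes had groups that did not overlap.

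The HSC differences of 7 members were above 0, as were those of 53.4% of all genes, and their median was 0.35, beside 0.02 over all genes. Of the 8, 5 were above 0 when the HSC array of KO mouse 2 was left out (median 0.32), and 5 when WT mouse 64 was (median 0.22). The median was lowest, at 0.18, without KO mouse 70, with 7 above 0. The members were measured on the same arrays, so their shared direction is a description.

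In MPP 0 of the 8 members passed, as did 0.0% of all genes, and 0 had an unadjusted p under 0.05, which 3.19% of all genes had. H2-Ab1 had the largest difference, at 0.48 (SE 0.30, 95% CI -0.19 to 1.15, limma adjusted p = 0.9999), with 7.91, 7.34 and 7.63 in KO MPP and 7.88, 7.02 and 6.55 in WT MPP. It was 0.18 without WT mouse 64 and 0.84 without WT mouse 3. H2-Oa followed at 0.35 (SE 0.43), with KO mouse 2 highest at 7.85. The other 6 members lay between -0.11 for Ciita and 0.20 for H2-DMb1. Of the 8 members 5 were above 0, beside 50.5% of all genes, and KO and WT values overlapped for each, where 9.49% of all genes did not.

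**Figure D4:**
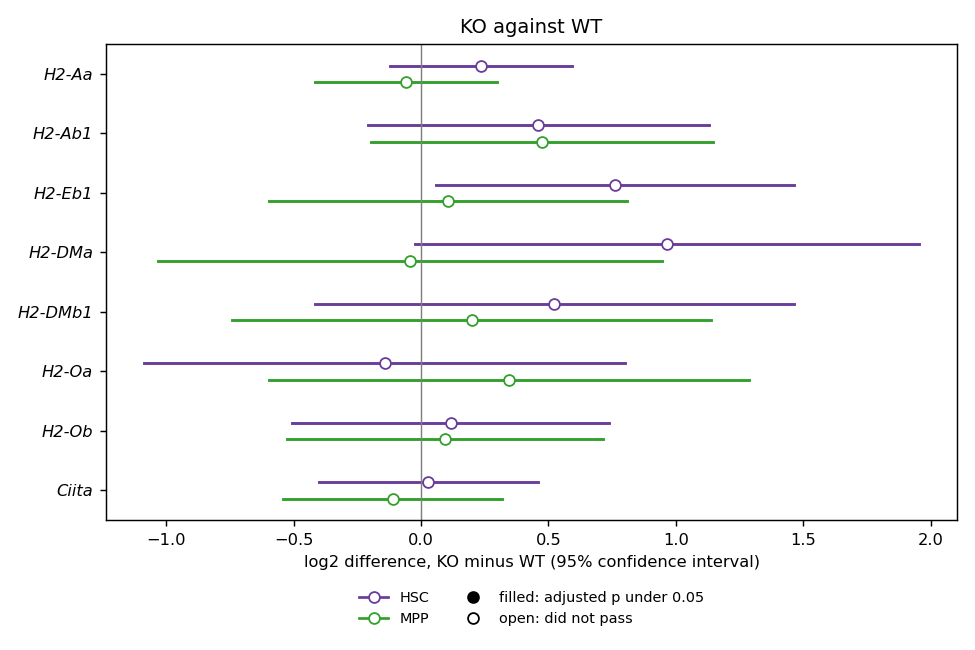
KO minus WT log2 difference of each class II gene in HSC and in MPP, with 95% confidence intervals from limma. All points are open, because no member passed at an adjusted p under 0.05. The HSC intervals are widest for H2-DMa, whose difference of 0.96 has an interval of -0.02 to 1.95.

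With the arrays of each mouse averaged, 0 of the 8 members passed, as did 0.0% of all genes, and 0 had an unadjusted p under 0.05, beside 4.45% of all genes. H2-Ab1 read 7.65, 7.22 and 7.27 in KO mice and 7.21, 6.98 and 6.54 in WT mice. Every KO mouse lay above every WT mouse, by a narrow margin, and 4.85% of all genes showed this separation in this direction (8.69% in either). The difference of 0.47 (SE 0.21, 95% CI -0.03 to 0.96) had an unadjusted p of 0.0609 and a limma adjusted p of 0.9999. Without WT mouse 64 it was 0.28, that of H2-DMa 0.11 and that of H2-DMb1 0.16, and without WT mouse 12 that of H2-DMa was 0.73. H2-DMa at 0.46, H2-Eb1 at 0.43 and H2-DMb1 at 0.36 had overlapping groups, and 7 of 8 members were above 0, beside 52.7% of all genes. An interaction term compared the genotype differences of the populations, and 0 of the 8 members and 0.0% of all genes passed it by limma. At an unadjusted p under 0.05 there were 0 members and 4.5% of all genes. The largest interaction was that of H2-DMa, at 1.01 (SE 0.63, limma adjusted p = 0.9996), or 0.65 without WT mouse 3 and 1.66 without WT mouse 12.

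Genes that act on or beside the class II pathway were read on the same arrays. Over both genotypes, 2.92% of all genes were called lower in HSC and 4.85% were called in either direction. Of 11 promoter factors, all tested, 1 was called lower in HSC over both genotypes. This was Smarca4, the chromatin remodeller BRG1 that human cells need to induce CIITA, at -0.67 (SE 0.14, limma adjusted p = 0.0229, or 0.0718 with the mouse as a block). The RFX subunits did not pass. Rfx5 scattered widely, at 6.03, 6.19 and 6.92 in KO HSC and 3.86, 8.25 and 5.26 in WT HSC. Of 11 tested regulators of Ciita and of interferon gamma signalling, Ifngr2, a chain of the interferon gamma receptor, was called lower. It read 6.21, 5.89 and 6.11 in KO HSC and 6.56, 6.55 and 6.83 in KO MPP, and 6.21, 5.86 and 5.76 in WT HSC and 7.01, 7.11 and 7.55 in WT MPP. The difference over both genotypes was -0.93 (SE 0.13, limma adjusted p = 0.00256), and no HSC value reached the MPP values of its genotype. It was -0.58 in KO mice (limma adjusted p = 0.217) and -1.28 in WT mice (limma adjusted p = 0.00707). The interaction was 0.71 (SE 0.27, limma adjusted p = 0.9996).

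Of 8 endosomal proteases and related genes, 1 was called lower, where 2.92% of all genes were and 4.85% were called in either direction. This was Ctss, cathepsin S, which cleaves the invariant chain. It averaged 7.24 ± 0.53 in KO HSC and 8.39 ± 0.27 in KO MPP, and 7.41 ± 0.28 in WT HSC and 8.57 ± 0.27 in WT MPP (SD, n = 3). The difference over both genotypes was -1.16 (SE 0.19, limma adjusted p = 0.00587). Of 7 tested genes of turnover and co-stimulation, Cd86, a ligand of CD28, was called lower at -0.93 (SE 0.22, limma adjusted p = 0.0391, or 0.135 with the mouse as a block). The tetraspanins Cd9 and Cd63 were called higher, at 1.11 (SE 0.13, limma adjusted p = 0.000651) and 0.85 (SE 0.14, limma adjusted p = 0.00535). Ifngr2, Ctss, Cd9 and Cd63 kept their calls over both genotypes under all 14 alternatives tried. In KO mice alone Cd9 was the single list gene called (limma adjusted p = 0.0274, or 0.131 with the block). In WT mice alone Smarca4, Ifngr2, Cd9 and Cd63 were called, and with the mouse as a block their limma adjusted p rose to 0.118, 0.0508, 0.0574 and 0.0579. None of these lists had a gene that passed between KO and WT.

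H2-Ob lies among other class II and class I genes on chromosome 17. Between H2-Oa and H2-Eb1 in the order of the GRCm38.p6 annotation, 6 further genes had a probe set, namely Brd2, H2-DMb2, Psmb9, Tap1, Psmb8 and Tap2. Of these, Psmb8, an immunoproteasome subunit of class I presentation, was called lower in HSC over both genotypes, at -0.47 (SE 0.12, limma adjusted p = 0.0470, or 0.126 with the mouse as a block). The differences of 5 of the 6 were below 0, with a median of -0.44, beside 42.8% of all genes below 0. Of 9 class I presentation genes, Psmb8 among them, 1 was called lower and 0 higher, beside 2.92% of all genes called lower. Their median was 0.03. No difference of a class I gene was larger than 0.47 in size over both genotypes, against 2.26 for H2-Ob.

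Some markers of B cells, in which H2-O is known to be made, were lower in HSC as H2-Ob was. Of 9 B cell markers measured and 8 tested, 3 were called lower in HSC over both genotypes, beside 2.92% of all genes. Below 0 lay 6, beside 42.8% of all genes, and 2 lay above, up to 0.41 for Cr2, with a median of -0.33. Ebf1, an early B lineage transcription factor, averaged 6.03 ± 0.24 in KO HSC and 7.76 ± 0.59 in KO MPP, and 5.88 ± 0.11 in WT HSC and 8.30 ± 0.77 in WT MPP (SD, n = 3). Its difference over both genotypes was -2.07 (SE 0.26, limma adjusted p = 0.00125). Vpreb1, of the surrogate light chain, differed by -2.19 (SE 0.22, limma adjusted p = 0.000303) and Cd79a, of the B cell receptor complex, by -0.98 (SE 0.17, limma adjusted p = 0.00794, or 0.0522 without WT mouse 64). In KO mice alone Vpreb1 was called, and in WT mice alone Ebf1 and Vpreb1. The KO call was lost with only the arrays compared and without mouse 70 (limma adjusted p up to 0.0591). In WT mice that of Ebf1 was lost without mouse 12 or 64 (limma adjusted p up to 0.0985). That of Vpreb1 in WT mice was lost with the block (limma adjusted p = 0.0529) and without mouse 3, 12 or 64 (up to 0.130). The summed signal of the 9 markers was 8.99 to 9.43 on the KO HSC and 9.82 to 10.4 on the KO MPP arrays, and 9.02 to 9.38 on the WT HSC and 10.1 to 10.4 on the WT MPP arrays, as log2 of the sum. Ms4a1, which encodes CD20 of mature B cells, lay at 4.53 to 5.05 on all 12 arrays, around the filter value of 4.96. The LSK gate is set to leave out lineage-positive cells, and the purity of the sorted cells was not tested here. The part of these markers in the H2-Ob difference was not tested.

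Of 10 dendritic cell markers measured and 8 tested, 0 passed in the comparisons of HSC with MPP, and their mean was 5.73 to 6.01 in KO HSC, 5.86 to 5.94 in KO MPP, 5.80 to 5.99 in WT HSC and 5.72 to 5.89 in WT MPP. Of 9 monocyte and macrophage markers, 2 were called lower in HSC over both genotypes, beside 2.92% of all genes. Both are named after their values were seen. Of the 9, 6 lay above 0, with a median of 0.10. Csf1r, the receptor of macrophage colony-stimulating factor, differed by -0.60 (SE 0.14, limma adjusted p = 0.0405). Ly6c2, a monocyte surface antigen, differed by -1.89 (SE 0.43, limma adjusted p = 0.0303), with overlapping HSC and MPP values. Its difference was -3.08 in KO mice (limma adjusted p = 0.0378) and -0.71 in WT mice (limma adjusted p = 0.660), with an interaction of -2.38 (SE 0.86, limma adjusted p = 0.9996). Whether the calls of Csf1r and Ly6c2 hold under the alternatives, such as the mouse as a block, was not examined. The mean of 8 T and NK cell markers stayed between 4.70 and 4.98 in every group, with 4 of the 8 below the filter value on all arrays of each group. The part of these cells in the class II signals was not tested.

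The WT HSC array of mouse 64 held the lowest of all 12 values for 4 of the 8 members, and the WT MPP array of the same mouse held the lowest for 2. The WT HSC array of mouse 12 was the highest of its group for 5 members, as was the WT MPP array of mouse 3 in its group. Over all arrays, H2-Ob spanned 3.17 units, H2-DMa 2.66, H2-Oa 2.47, H2-DMb1 1.97, H2-Eb1 1.74 and H2-Ab1 1.38. H2-Aa and Ciita spanned 0.60 and 0.54.

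The tested genes outside the list whose pattern over the 12 arrays was most like the mean of the members' standardised values were Mrpl17 (r = 0.912), Mrpl23 (r = 0.899), Plekho2 (r = 0.885), Gnai2 (r = 0.878) and Slc25a28 (r = 0.876). Once group means were removed from every array, they were Foxo4 (r = 0.970), Nup93 (r = 0.943), Fars2 (r = 0.937), Fibp (r = 0.937) and Mrpl23 (r = 0.936). These are the highest of many correlations over arrays that share mice and normalisation, and they are given as a description. No gene of the class II lists was among them.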

How the data were processed

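RNA of 12 HSC and MPP samples (300 pg each, extracted with a Qiagen method and amplified and biotin-labelled with NuGEN kits, per the labels' protocols) was measured on 1 array per mouse and population. The authors deposited log2 signals per probe set. The submitters' processing notes name RMA and limma, and their versions were not given in the sources used here. Such normalisation removes shifts of the whole transcriptome and compresses weak signals. Detection calls were not used here. Array medians were 5.81 to 5.91.

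Of 22142 probe sets, 19527 had 1 gene symbol and 2615 none. The highest-mean probe set of each gene was kept (33 genes had several), which left 19494 genes. The lowest 25% by mean (4874 genes, below 4.96) were left out and 14620 tested. One limma model of 4 group means (R 4.3.3, limma 3.58.1, statmod 1.5.0) gave two-sided moderated tests, adjusted by Benjamini-Hochberg over all genes and called at an adjusted p under 0.05. KO and WT over both populations were compared on mouse means. The fit was tested on simulated data. Members and lists were chosen with earlier results of these data known. All members are named, with the list genes of lowest p and the 5 genes of highest r for each pattern. The labels pair HSC and MPP arrays by animal. As a check, the HSC and MPP deviations of each mouse from their groups had r of 0.032 to 0.091 over genes, averaging 0.055, and 2 of 6 HSC arrays had their highest r with the MPP array of the same mouse. Alternatives were no filter or one at 50%, the mean of probe sets, a second quantile normalisation, trended and robust moderation, array weights, only the arrays compared, the mouse as a block, leaving out each mouse and leaving out the HSC array of KO mouse 2. The HSC and MPP comparison over both genotypes, and the alternatives for list genes and B cell markers, were added after seeing the data. Promoter windows came from RefSeq (GRCm38.p6).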

Additional observations from a re-analysis of the deposited data

How the results depend on the processing

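H2-Ob kept its direction between HSC and MPP under every alternative run, and its call under all of them in KO mice and over both genotypes. Differences ran -2.37 to -2.15 in KO mice (limma adjusted p 0.0033 to 0.0416) and -2.58 to -1.91 in WT mice (limma adjusted p 0.00178 to 0.0509). The number of members called in WT mice was 0 to 1 when single mice were left out. It was 0 without WT mouse 64, which leaves 2 WT arrays per population. With the mouse as a replicate block, the H2-Ob limma adjusted p was 0.0281 in KO mice, 0.0213 in WT mice and 0.00291 over both genotypes, and the block changed no call of a member. Counts over all genes moved more: 184 genes passed for HSC against MPP in KO mice, against 57 to 168 without single mice, 79 with only the arrays compared and 106 without the HSC array of KO mouse 2. In WT mice 302 passed, against 70 to 297 without single mice, and over both genotypes 709, against 379 to 524. Over both genotypes, Smarca4, Cd86 and Psmb8 kept their calls under 6, 8 and 5 of 14 alternatives, with a limma adjusted p of up to 0.0828, 0.177 and 0.175. All 3 calls were lost with the block, without mouse 2, 3 or 11 and without the HSC array of KO mouse 2. Those of Cd86 and Psmb8 were also lost without mouse 64, those of Smarca4 and Psmb8 without mouse 70 and with a second quantile normalisation, that of Smarca4 without mouse 12 and that of Psmb8 with trended and robust moderation. For KO against WT in HSC, 1 gene outside the members passed without mouse 11, and 0 with all mice. No member was called between KO and WT or in the interaction under any alternative.

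Changes of sign among members concerned values that did not pass, and their cause was not tested. A second quantile normalisation gave, for HSC against MPP in WT mice, 0.092 for H2-Aa, -0.028 for H2-Eb1, 0.086 for H2-DMb1 and -0.050 for Ciita, and 0.019 for the H2-Ab1 interaction. Array weights gave 0.073 for H2-DMa for KO against WT in MPP, 0.0012 for Ciita over both populations, and -0.0060 for H2-Eb1 for HSC against MPP in WT mice. Without the HSC array of KO mouse 2, KO against WT in HSC was -0.0030 for H2-Ob and -0.0040 for Ciita, and the H2-Ob interaction was -0.10. The other changes came from leaving out single mice, which gave the ranges that follow. For KO against WT in HSC they ran -0.54 to 0.28 for H2-Oa, -0.075 to 0.37 for H2-Ob and -0.064 to 0.11 for Ciita. For KO against WT in MPP they ran -0.18 to 0.030 for H2-Aa, -0.063 to 0.23 for H2-Eb1, -0.25 to 0.22 for H2-DMa, -0.088 to 0.65 for H2-Oa and -0.12 to 0.26 for H2-Ob. For KO against WT over both populations they ran -0.13 to 0.46 for H2-Oa, -0.062 to 0.27 for H2-Ob and -0.17 to 0.032 for Ciita. For HSC against MPP in WT mice they ran -0.27 to 0.13 for H2-Aa, -0.033 to 0.11 for H2-Eb1, -0.32 to 0.21 for H2-DMb1 and -0.066 to 0.051 for Ciita. For HSC against MPP in KO mice they ran -0.38 to 0.88 for H2-DMb1. For HSC against MPP over both genotypes they ran -0.019 to 0.18 for H2-Aa and -0.20 to 0.43 for H2-DMb1. For the interaction they ran -0.44 to 0.21 for H2-Ab1, -0.36 to 0.91 for H2-DMb1, -0.34 to 0.33 for H2-Ob and -0.0011 to 0.38 for Ciita. Nfat5 was lower in KO without any single mouse.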
